A study of Mus musculus with 5 samples.

Results

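The proteasome subunit genes were taken as the autosomal protein-coding genes whose symbols begin with Psm and a letter from a to g. This gave 49 genes of the 21275 autosomal protein-coding genes in the GENCODE vM1 annotation of the mouse genome (build mm9). The X-linked Psmd10 was left out by the choice of autosomes. The list holds the subunits of the proteasome core and cap, the activators, the inhibitor and the assembly factors. It also holds 3 genes that only share the symbol pattern or are specialised copies, namely Psmc3ip, a meiotic recombination factor, Psma8, a core subunit of the testis, and Psme2b-ps, a copy of Psme2.

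The data are ChIP-seq windows from CD4+CD8+ double-positive (DP) thymocytes of mice, the stage at which the T-cell receptor is first tested in the thymus. Chromatin was precipitated for H3K4me3, the trimethylation of histone H3 that marks active gene starts, or for Cxxc1, the CpG-binding subunit of an enzyme complex that writes this mark. Wild-type (WT) cells carried the floxed Cxxc1 alleles without Cre (Cxxc1 fl/fl), and Cxxc1-deficient cells also carried the hCD2-Cre transgene, which deletes from early thymocytes onwards and acts in other lymphoid cells too. The titles call the deficient samples KO while their genotype field reads Cxxc1+/-. The study's own ChIP-seq summary gives Cxxc1 fl/fl with hCD2-Cre for the deficient H3K4me3 library, with the same 2979 peaks as the list used here. It also reports that Cxxc1 mRNA was almost undetectable in DP cells of such mice. The list was therefore taken as that genotype. The mice were backcrossed to C57BL/6 and, by the study's methods, were mostly a few weeks old. Of 5 samples, each with 1 library, 3 lists of enriched 200-bp windows were used, namely WT H3K4me3, Cxxc1-deficient H3K4me3, and Cxxc1 (called in WT cells by the study's methods). The Cxxc1 precipitation from deficient cells and the WT input were not analysed here. With 1 library for each list there was no replicate check, no test between genotypes was made, and every interval given covers counting error only.

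The values are RPM, that is reads in the listed windows scaled to the size of the library, and 1 tag was worth between 0.1056 and 0.11 RPM, which corresponds to 9.09 to 9.47 M tags behind each list. Adjoining windows joined into 14237 WT H3K4me3, 2979 Cxxc1-deficient H3K4me3 and 4352 Cxxc1 peaks, and the weakest peak in each list held 1.1 RPM. For a gene whose start is not listed the signal is unknown, and it is never read as 0. The promoter of Cxxc1 itself held 2.7 RPM of H3K4me3 in WT cells and was not listed in the deficient cells, which does not check the deletion, since the floxed exons lie inside the gene. Of 12 DP thymocyte markers, 6 were listed in WT (Cd8a, Cd8b1, Cd3e, Tcf7, Bcl11b and Satb1) and 3 in the deficient cells (Cd8a, Cd3e and Rag1). Cd4, Rag1, Rag2, Cd3d, Cd3g and Themis were not listed in WT. Over all autosomal genes 32.5% were listed in WT and 6.13% in the deficient cells. Of 9 markers of the cortical thymic epithelium, Ccl25 and Dll4 were listed in WT and Ly75 in the deficient cells, of 5 B-cell markers only Cd79b was listed in WT, and of 5 myeloid markers none was in either H3K4me3 list. The part of other cell types in the values below was not tested.

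The proteasome is the cell's main protease for proteins tagged with ubiquitin. Its barrel-shaped core is built of outer alpha rings and inner beta rings, whose catalytic subunits face the inside, and a cap of ATPases and further subunits recognises, unfolds and feeds in the substrate. In lymphoid cells, and in others after interferon, the catalytic subunits Psmb5, Psmb6 and Psmb7 can be replaced by Psmb8, Psmb9 and Psmb10, which gives the immunoproteasome that makes peptides for MHC class I. The cortical epithelium of the thymus uses Psmb11 in place of Psmb5, and peptides made there take part in the positive selection of CD8 T cells.

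The promoters of the immune subunits and their counterparts show how far these genes differ in sequence. The following stretches run 5′ to 3′ along the gene from 250 bases before the GENCODE start to 50 bases from it, in build mm9, and capitals mark CpG, the dinucleotide that the finger domain of Cxxc1 binds when unmethylated. Psmb8, Psmb9 and Psmb10 are the immune subunits, Psmb5 is the constitutive counterpart of Psmb8, Psmb11 is the thymic form, and Psme2 is the beta subunit of the PA28 activator.
Psmb8 (chr17:34334485-34334784, plus strand): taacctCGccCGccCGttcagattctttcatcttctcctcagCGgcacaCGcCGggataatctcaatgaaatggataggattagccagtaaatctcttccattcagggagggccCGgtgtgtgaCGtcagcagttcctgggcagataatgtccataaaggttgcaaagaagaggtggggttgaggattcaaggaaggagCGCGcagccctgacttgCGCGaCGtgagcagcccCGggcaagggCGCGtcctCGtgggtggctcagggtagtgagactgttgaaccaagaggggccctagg
Psmb9 (chr17:34324660-34324959, minus strand): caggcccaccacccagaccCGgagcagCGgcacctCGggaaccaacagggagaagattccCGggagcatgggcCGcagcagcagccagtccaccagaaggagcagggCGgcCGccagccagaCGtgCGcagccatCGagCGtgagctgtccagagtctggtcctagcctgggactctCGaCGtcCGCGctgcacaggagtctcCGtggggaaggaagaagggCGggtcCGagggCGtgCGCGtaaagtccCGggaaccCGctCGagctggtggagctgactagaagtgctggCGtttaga
Psmb10 (chr8:108462243-108462542, minus strand): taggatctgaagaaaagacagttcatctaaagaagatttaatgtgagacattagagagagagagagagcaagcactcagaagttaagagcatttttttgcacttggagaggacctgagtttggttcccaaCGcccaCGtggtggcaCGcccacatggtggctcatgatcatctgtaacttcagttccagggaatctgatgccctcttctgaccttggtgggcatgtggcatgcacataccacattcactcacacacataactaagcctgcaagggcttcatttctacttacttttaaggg
Psmb5 (chr14:55236783-55237082, minus strand): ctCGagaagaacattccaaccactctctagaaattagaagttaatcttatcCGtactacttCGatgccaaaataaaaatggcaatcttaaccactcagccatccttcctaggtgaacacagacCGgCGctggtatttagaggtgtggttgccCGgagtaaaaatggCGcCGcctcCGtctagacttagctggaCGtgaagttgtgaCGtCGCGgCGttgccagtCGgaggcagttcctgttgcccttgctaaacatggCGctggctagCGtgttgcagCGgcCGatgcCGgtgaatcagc
Psmb11 (chr14:55243897-55244196, plus strand): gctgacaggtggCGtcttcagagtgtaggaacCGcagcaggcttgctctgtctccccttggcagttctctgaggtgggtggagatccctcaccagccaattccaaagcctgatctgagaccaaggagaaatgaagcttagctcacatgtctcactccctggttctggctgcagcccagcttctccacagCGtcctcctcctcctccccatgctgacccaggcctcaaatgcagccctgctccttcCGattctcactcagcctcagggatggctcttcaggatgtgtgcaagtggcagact
Psme2 (chr14:56209889-56210188, minus strand): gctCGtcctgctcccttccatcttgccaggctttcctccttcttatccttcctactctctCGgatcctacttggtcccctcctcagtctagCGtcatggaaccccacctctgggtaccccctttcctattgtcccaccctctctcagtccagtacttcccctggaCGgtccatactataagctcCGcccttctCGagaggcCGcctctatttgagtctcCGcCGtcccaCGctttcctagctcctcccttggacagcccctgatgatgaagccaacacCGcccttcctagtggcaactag

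These 300 bases held 25 CpG in Psmb9, 20 in Psmb5, 17 in Psmb8, 11 in Psme2, 4 in Psmb11 and 3 in Psmb10. The number for Psmb10 belongs to the only start that the annotation gives, chr8:108462292, and the WT H3K4me3 peak of that gene (chr8:108460401-108462000) lay wholly downstream of it. The Psmb9 stretch also covers a start of Tap1, a subunit of the peptide transporter for MHC class I, which lay 38 bp away on the opposite strand.

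In WT cells 24 of the 49 genes had a listed H3K4me3 window within 1 kb of an annotated start (TSS). This was 49% (exact binomial 95% interval 34.4 to 63.7%), against 32.5% of all autosomal protein-coding genes. Most of the genes have a CpG island within 1 kb of a start, here a stretch of at least 500 bp with 55% G and C and CpG at 0.65 of the number its bases would give by chance. Such an island was found at 44 of the 49 genes (89.8%) and at 57.9% of all genes. Among the genes with an island, 23 of 44 proteasome genes were listed (52.3%, interval 36.7 to 67.5%), against 50.9% of all autosomal genes with an island. The share of proteasome genes with WT H3K4me3 was thus above that of all genes, and near that of genes with the same kind of promoter.

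In Cxxc1-deficient cells 5 of the 49 genes were listed (10.2%, interval 3.4 to 22.2%), against 6.13% of all autosomal genes and 9.24% of those with an island. All 5 were also listed in WT, so that 19 of the 24 genes were listed in WT only and no gene was listed in the deficient cells only. The share of WT-listed genes that were also in the deficient list was 20.8% (interval 7.13 to 42.2%), against 12.8% of all WT-listed genes and 13% of those with an island. All 5 have an island, which makes the share 21.7% of the 23 genes with one. Each interval held the background share, and the deficient list is itself shorter than the WT list.

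**Figure D1:**
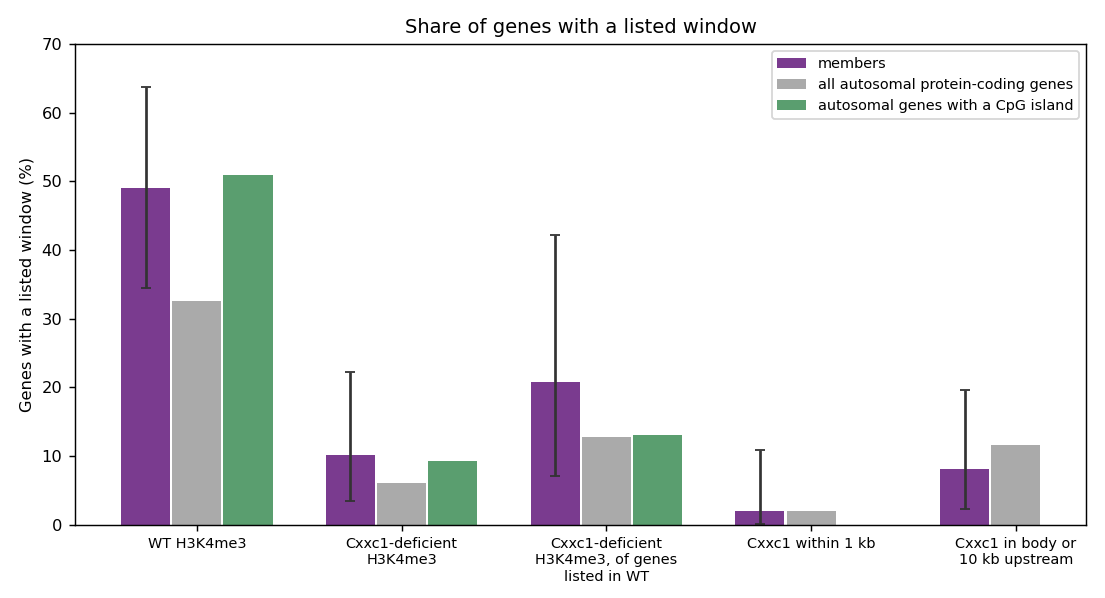
Share of genes (%) with a listed window, for the 49 proteasome genes (purple, with exact binomial 95% intervals), all autosomal protein-coding genes (grey) and those with a CpG island (green; not drawn for Cxxc1). The proteasome genes stand at 49% for WT H3K4me3, close to the 50.9% of genes with an island, and their intervals hold the grey value in the other 4 groups of bars.

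Among the 24 listed genes the WT level ran from 0.4 to 3.8 RPM within 1 kb, with a median of 2.25 RPM (order-statistic interval 1.8 to 2.4). The median over all 6922 WT-listed autosomal genes was 2.4 RPM and the highest was 13.7 RPM. The median of the proteasome genes was thus close to that of all listed genes, and none of them came near the highest value. Their peaks had a median length of 1400 bp (400 to 3000 bp), against 1600 bp over all listed genes. Of the listed signal around the reference start, 56.8% lay downstream for these genes and 57% for all listed genes.

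Of the proteasome genes, the immune subunits Psmb8 and Psmb9 had the highest values in WT within 1 kb. Windows near any annotated start are summed, and Psmb9 has 4 starts. The tag intervals of both genes overlap that of Psmg2 (3.6 RPM, 24.4 to 48.7 tags), so the order is within counting error. Within 500 bp the highest were Psmb9 (3.4 RPM) and Psmg2 (3.2 RPM), while Psmb8 had 2.5 RPM, below the 2.6 RPM of Psma1 and Psmb3. Psmb8, which replaces Psmb5 and carries the chymotrypsin-like activity of the immunoproteasome, had 3.8 RPM in WT cells, that is 38 tags (exact Poisson 95% interval 26.9 to 52.2). It had 2.2 RPM in the deficient cells, that is 22 tags (13.8 to 33.3). Its WT peak spanned chr17:34333401-34336400 with 5.0 RPM in all, and its deficient peak spanned chr17:34332801-34335400 with 3.1 RPM. The gene was thus listed in both genotypes, at a lower value in the deficient library, with tag intervals that overlap.

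Psmb9, which replaces Psmb6, also had 3.8 RPM in WT (38 tags), over chr17:34323401-34325400. It had no window in the deficient list. The closest deficient window lay 8.09 kb from its starts, at the peak of Psmb8, whose reference start is 10026 bp from that of Psmb9 in the MHC class II region. The 2 neighbours with equal WT values thus differed in the deficient list, although the tags behind an unlisted promoter are not known. The Psmb9 windows are shared with Tap1 and cannot be divided between the 2 genes.

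Psmb10, which replaces Psmb7, had 1.6 RPM in WT (16 tags, 9.15 to 26) and was not in the deficient list. Its peak held 3.3 RPM in all, of which the part beyond 1 kb from the annotated start does not count here. Its 4 counted windows were centred between 391 and 991 bp downstream of that start. Psmb11 was in neither H3K4me3 list, and its nearest WT window lay 12.9 kb away. Nor were the 3 constitutive catalytic subunits listed in either genotype, with the nearest WT window 20.2 kb from Psmb5, 14.3 kb from Psmb6 and 44.6 kb from Psmb7. Of the 4 immune and thymic subunits 3 were thus listed in WT, and of the 3 constitutive catalytic subunits none, against 32.5% of all genes and 50.9% of those with an island. The counts are too small to be read against these shares. Psmb5 and Psmb11 are neighbours too, with starts 7.32 kb apart on chromosome 14.

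**Figure D2:**
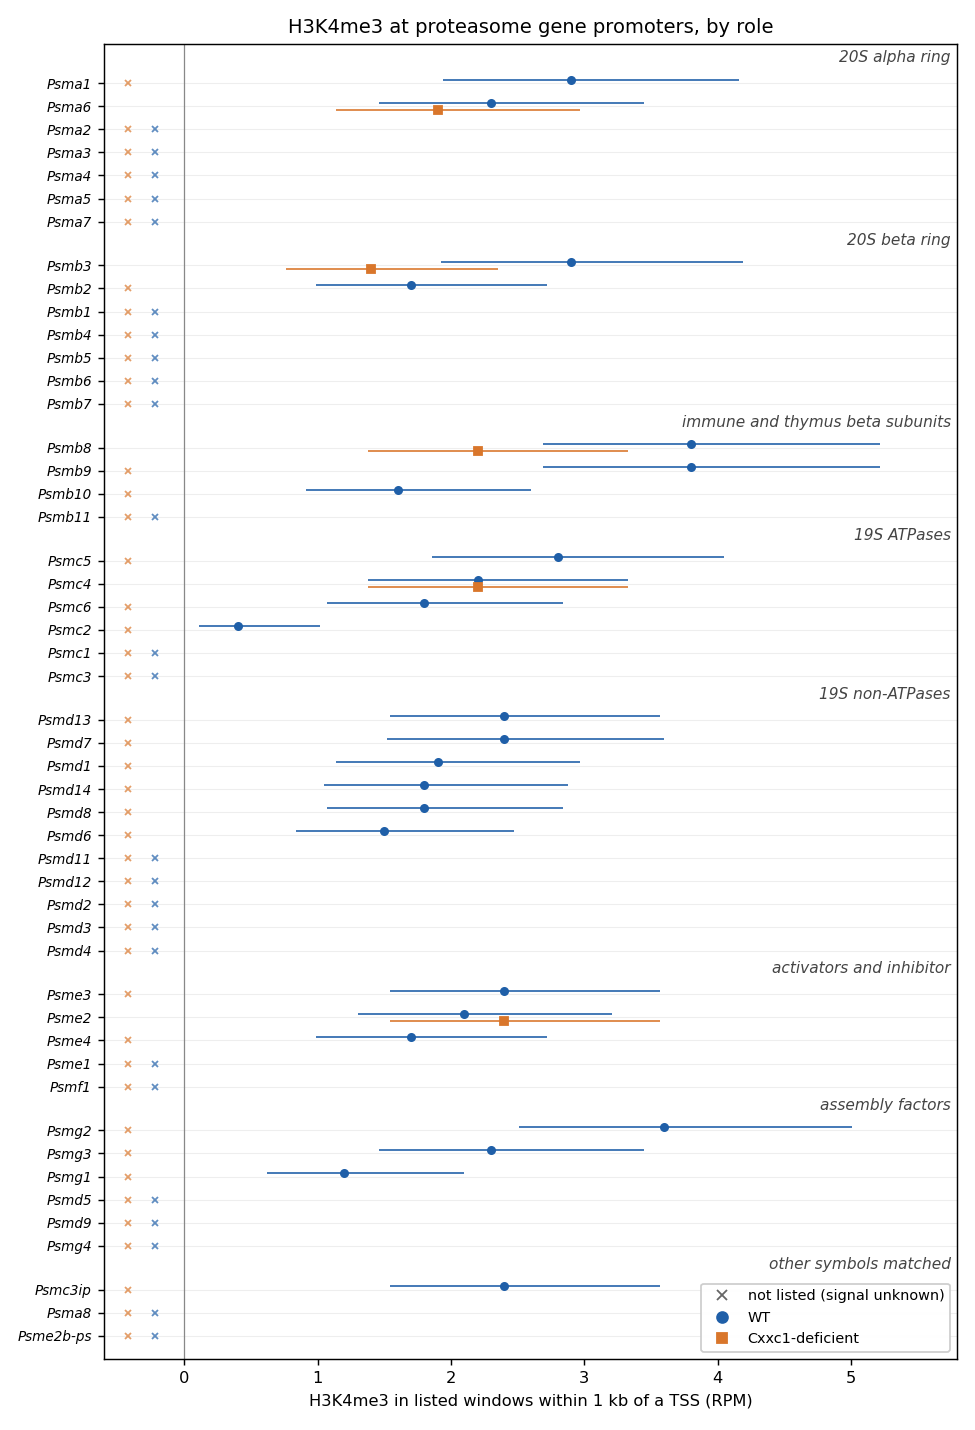
H3K4me3 in listed windows within 1 kb of a start (RPM, x axis) for each of the 49 genes, grouped by role, in WT (blue circles) and Cxxc1-deficient cells (orange squares), with exact Poisson 95% intervals of the tags scaled to RPM and crosses left of 0 for genes not listed. At this distance Psmb8 and Psmb9 stand highest at 3.8 RPM, and only Psma6, Psmb3, Psmb8, Psmc4 and Psme2 carry an orange square.

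The other core subunits were listed at 4 of 14 genes in WT. Of the 7 alpha ring genes, Psma1 had 2.9 RPM in WT (29 tags, 19.4 to 41.6) and Psma6 had 2.3 RPM (23 tags, 14.6 to 34.5). Psma2, Psma3, Psma4, Psma5 and Psma7, which with them form the gate and outer ring, were not listed. Psma6 was listed in the deficient cells as well, with 1.9 RPM (19 tags, 11.4 to 29.7). Of the 7 constitutive beta ring genes, Psmb3, a structural subunit, had 2.9 RPM in WT (28 tags, 18.6 to 40.5) and 1.4 RPM in the deficient cells (14 tags, 7.65 to 23.5). Psmb2, also structural, had 1.7 RPM in WT only, and Psmb1, Psmb4, Psmb5, Psmb6 and Psmb7 were not listed. The nearest WT window to Psmb1 lay 1.36 kb from its start, just outside the distance used. The share of the constitutive core genes listed in WT was 28.6% (interval 8.39 to 58.1%), against the 32.5% of all genes and the 50.9% of those with an island given above, and all 14 have an island.

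Of the cap genes 10 of 17 were listed in WT (58.8%, interval 32.9 to 81.6%), against 32.5% of all genes and 50.9% of those with an island, which all 17 have. The interval holds the share of island genes and overlaps the interval of the core genes. Among the 6 ATPases, which form the ring that unfolds the substrate, Psmc5 had 2.8 RPM, Psmc4 2.2 RPM, Psmc6 1.8 RPM and Psmc2 0.4 RPM, while Psmc1 and Psmc3 were not listed. The Psmc2 value came from 1 window of 4 tags at the edge of a peak of 1.9 RPM (chr5:21291801-21293000) that begins 0.7 kb into the gene. Psmc4 was listed in the deficient cells at the same 2.2 RPM as in WT, with 22 tags in each library (13.8 to 33.3). Its whole peaks held 2.2 RPM in WT and 2.5 RPM in the deficient cells. Since RPM is scaled within each library, equal values do not show an equal amount of the mark.

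Among the 11 other cap genes, Psmd7 and Psmd13, subunits of the lid, had 2.4 RPM each in WT. Psmd1, a large scaffold subunit of the base, had 1.9 RPM. Psmd14, the enzyme that removes ubiquitin chains from the substrate, and Psmd8, a lid subunit, had 1.8 RPM each, and Psmd6, also of the lid, had 1.5 RPM. None of these 6 was in the deficient list. Psmd2 and Psmd4, which bind ubiquitin or its carriers, and the lid subunits Psmd3, Psmd11 and Psmd12 were in neither list. Psmd3 had a WT peak inside the gene, at chr11:98554401-98556000 with 2.7 RPM, whose edge lay 10.5 kb from the nearest start. Psma6 likewise had a second WT peak away from its starts, at chr12:56490601-56491600 with 2.1 RPM. No such peak inside a proteasome gene was in the deficient list.

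Among the activators Psme2, the beta subunit of the interferon-inducible PA28, had 2.1 RPM in WT (21 tags, 13 to 32.1) and 2.4 RPM in the deficient cells (24 tags, 15.4 to 35.7). The intervals overlap, and the order turned with the distance counted, since the whole peaks of Psme2 held 3.5 RPM in WT and 3.3 RPM in the deficient cells. Its partner Psme1, the alpha subunit, starts 12.7 kb away and was in neither list. Psme3, the nuclear form PA28-gamma, had 2.4 RPM and Psme4, the activator PA200, had 1.7 RPM, both in WT only. Psmf1, the inhibitor PI31, was in neither H3K4me3 list.

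Of the 6 assembly factors, Psmg2 had 3.6 RPM in WT (35 tags, 24.4 to 48.7), Psmg3 had 2.3 RPM and Psmg1 had 1.2 RPM. These chaperones help to build the alpha ring. Psmg4, which works with Psmg3, and the chaperones of the cap base, Psmd5 and Psmd9, were not listed, and none of the 6 was in the deficient list. Psmc3ip had 2.4 RPM in WT only, and Psma8 and Psme2b-ps were in neither list. The 25 genes without a WT window had their nearest one between 1.36 and 549 kb from a start, with a median of 29.8 kb and 3 within 10 kb.

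When the WT list was cut to its 2979 strongest peaks, as many as the deficient list holds, 5 of the 49 genes had a window (10.2%, interval 3.4 to 22.2%), against 10.2% of all autosomal genes. These 5 were Psmb8, Psmb9, Psmb10, Psme2 and Psmg2. The share equals that of all genes, so the 5 names were not read as a group. Whole peaks were ranked, and Psmb10 entered with 3.3 RPM, of which 1.6 RPM lay within 1 kb of its start. The windows of Psmb9, Psme2 and Psmg2 cannot be divided from those of Tap1, Rnf31 and Cep76. Psmb8 and Psme2 of the 5 were also in the deficient list. Psma6, Psmb3 and Psmc4 were in the deficient list although their WT peaks were below the 3.2 RPM of the weakest peak kept.

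**Figure D3:**
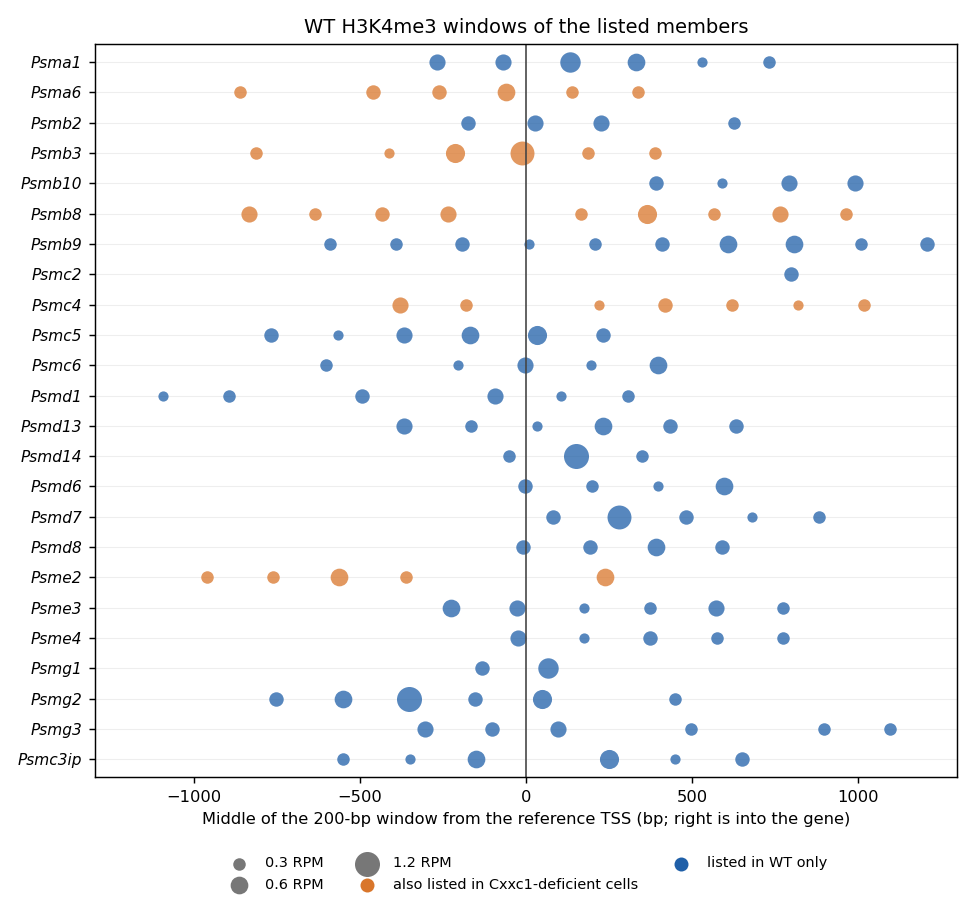
Listed WT H3K4me3 windows of the 24 genes, placed by the distance (bp) of their middle from the reference start, with the dot area in proportion to RPM. Most rows straddle the start, while Psmb10, Psmc2 and Psmd7 have windows centred downstream only, and Psme2 has most of its windows upstream.

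The windows were centred on both sides of the start in most genes, with more signal downstream in 17 of 24 genes and more upstream in 7. The strongest single windows were those of Psmg2 and Psmd14 (1.2 RPM each), followed by Psmb3 and Psmd7 (1.1 RPM each). A start of another protein-coding gene lay within 1 kb of 9 of the 49 genes, on the opposite strand in all 9, and 6 of these were listed in WT, against 18 of the other 40. The partners of the listed genes were Tap1 at Psmb9 (38 bp), Dnajc2 at Psmc2 (32 bp), Ftsj3 at Psmc5 (75 bp), Sirt3 at Psmd13 (99 bp), Cep76 at Psmg2 (263 bp) and Rnf31 at Psme2 (595 bp). The signal of these 6 genes cannot be told apart from that of the partner. Of the 9, only Psme2 was in the deficient list.

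In the 5 genes listed in both genotypes the ratio of WT to deficient RPM was 2.07 in Psmb3, 1.73 in Psmb8, 1.21 in Psma6, 1 in Psmc4 and 0.875 in Psme2. The median ratio was 1.21, against 1.4 over the 886 autosomal genes listed in both. These ratios cover only genes that passed the call in both lists. RPM is scaled within each library, so a loss shared by all genes would not show in them. By ELISA the study found less total H3K4me3 in Cxxc1-deficient DP cells. For each of the 5 the tag intervals of the 2 libraries overlapped. Fewer windows coincided than were listed. Psmb3 had 3 windows in both lists, with 2.1 RPM in WT and 1.4 RPM in the deficient cells, and its strongest WT window of 1.1 RPM held 0.5 RPM in the deficient cells. Psmb8 and Psmc4 shared 5 windows each, with 2.2 and 1.6 RPM for Psmb8 and 1.5 and 1.7 RPM for Psmc4. Psma6 shared 3 windows and Psme2 shared 2. The WT windows of Psme2 lay mainly upstream, on the side of Rnf31, while the deficient ones were split evenly about the start. Among the 24 listed genes, the WT level of the 5 had a median of 2.3 RPM (2.1 to 3.8) and that of the 19 listed in WT only 1.9 RPM (0.4 to 3.8).

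**Figure D4:**
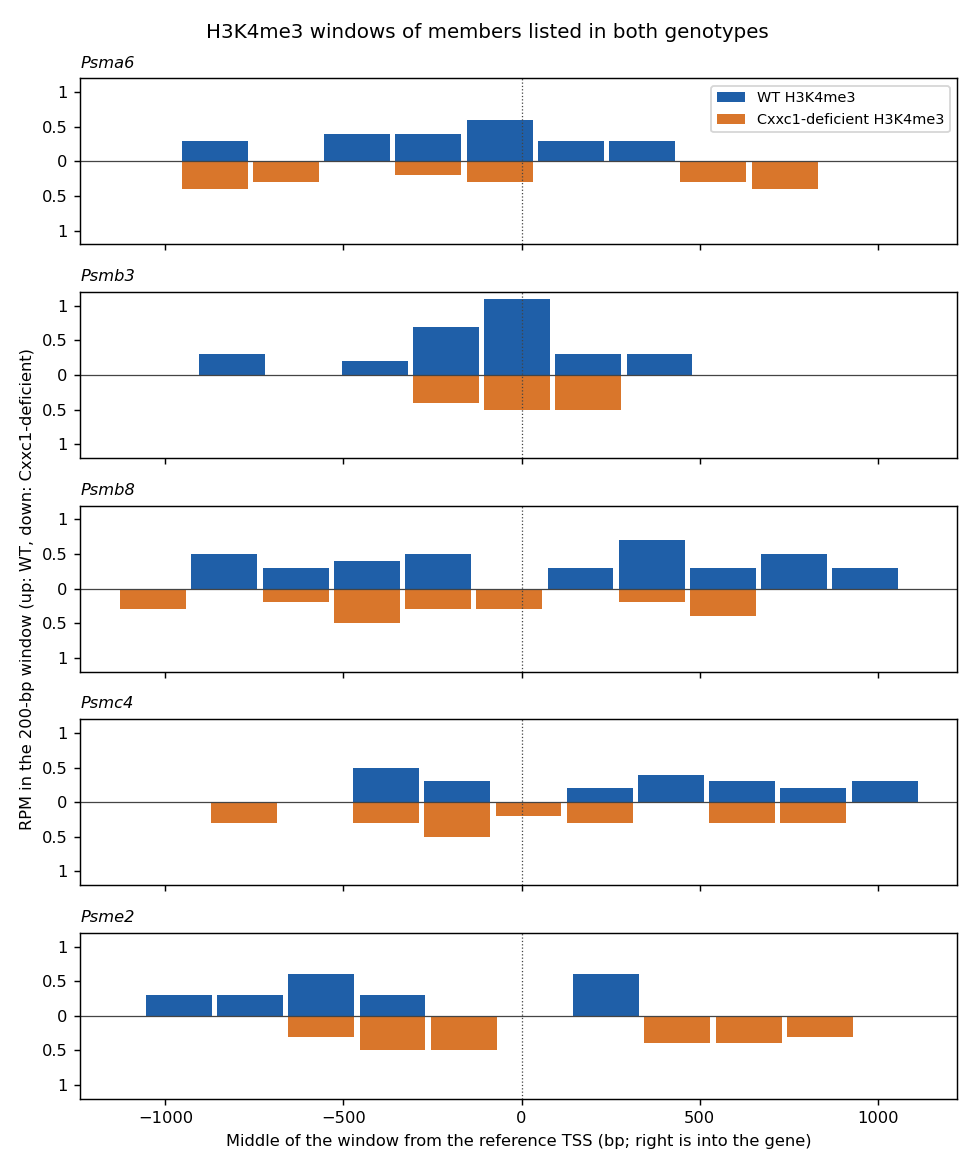
RPM of each listed 200-bp window against its distance (bp) from the reference start, for the 5 genes in both lists, with WT upwards in blue and Cxxc1-deficient downwards in orange. Psmb3 shows the narrowest deficient peak, 3 windows about the start, and in Psme2 only 2 windows coincide.

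Near their starts, Cxxc1 was listed at the same share of these genes as of all genes. A Cxxc1 window lay within 1 kb of a start at 1 of 49 genes (2.04%, interval 0.0517 to 10.9%), against 2.04% of all autosomal genes. This was Psmf1, at an alternative start within the gene (chr2:151567046). The peak, chr2:151565601-151567400, held 3.1 RPM (30 tags, 20.2 to 42.8) with its middle in an intron, 3.42 kb downstream of the reference start, and overlapped no H3K4me3 peak of either genotype. Its strongest window is printed on the plus strand, with the CpG in capitals, since this is the only Cxxc1 peak near a start of these genes, and it holds 4 CpG in 200 bases.
Psmf1 window (chr2:151566201-151566400, plus strand): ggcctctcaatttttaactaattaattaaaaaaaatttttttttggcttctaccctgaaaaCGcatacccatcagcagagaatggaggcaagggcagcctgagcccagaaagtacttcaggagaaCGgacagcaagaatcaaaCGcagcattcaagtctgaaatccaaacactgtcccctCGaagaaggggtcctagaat

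With the gene body and 10 kb upstream counted, 4 of 49 genes held a Cxxc1 peak (8.16%, interval 2.27 to 19.6%), against 11.6% of all autosomal genes. Beside Psmf1 these were Psma8, with intronic peaks of 2.0 and 1.7 RPM, Psmd2, with 2.1 RPM at 8.22 kb upstream of its start, and Psmb3, with 1.6 RPM at 3.01 kb upstream. The peak upstream of Psmb3 (chr11:97561401-97562000, 15 tags) overlapped a WT H3K4me3 peak and no deficient one. Of the 4 genes only Psmb3 had H3K4me3 at its start. None of the 5 genes listed in both genotypes or the 19 listed in WT only had a Cxxc1 window within 1 kb of a start. The share over all autosomal genes was 2.04%, so these counts are too small to be read as a trait of these genes.

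What the promoters share was read from the same 300 bases around each reference start. The median number of CpG was 20 over the 49 genes, 22 over the 24 listed in WT, 16 over the 25 not listed and 13 over all autosomal genes. The share with an island was 23 of 24 listed and 21 of 25 unlisted genes, Psmb10 being the listed gene without one. Psmb11, Psma8, Psme1 and Psme2b-ps were the others without an island.

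Short motifs of factors known for these genes were searched on both strands. The core of the antioxidant response element, TGACNNNGC, at which the proteasome activator Nfe2l1 and its relative Nfe2l2 act, was found in 7 of 49 promoters (14.3%) and in 12.7% of all. The 7 were Psmb2, Psmb5, Psmb6, Psmc6, Psmd7, Psmd9 and Psmd12, and the match in Psmb5, TGACGTCGC, begins at position -47 from its start in the sequence printed above. The ETS motif CCGGAAG was in 18 promoters (36.7%), against 11.3% of all and 17.2% of those with an island, in 10 of the 24 listed genes and 8 of the 25 unlisted ones. The YY1 motif AAGATGGCG was in 4 (8.16%), against 1.91% of all and 2.96% of those with an island. The motif GCATGCGC of Nrf1 (nuclear respiratory factor, not Nfe2l1) was in 4 (8.16%), against 3.45% of all and 5.41% of those with an island. The Sp1 motif GGGCGG was in 29 (59.2%), above the 45.2% of all promoters and below the 68.1% of those with an island. The CCAAT box of NF-Y was in 17 (34.7%, against 37.5%). The CREB motif TGACGTCA was in 2 (4.08%, against 2.39%), namely Psmb2 and Psmb8, in which it begins at position -129 from the start. The interferon response core GAAANNGAA was in 7 (14.3%, against 8.82%), none of them an immune subunit, and the STAT motif TTCNNNGAA was in 4 (8.16%, against 7.78%), Psmb8 among them. A match is a description of the sequence and was not tied to binding.

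Of 18 autosomal genes that work with the proteasome, 11 were listed in WT, against 32.5% of all genes and 50.9% of those with an island. How many of the 18 have an island was not counted, so no excess is read from this. Among them the ubiquitin receptor Adrm1 had 3.3 RPM, the transcription factors Nfe2l2 and Nfe2l1, which drive proteasome genes under stress, had 3.3 and 1.5 RPM, and the substrate carrier Rad23b had 2.0 RPM. The proteasome deubiquitinase Uchl5 had 3.1 RPM, while Usp14, the other one, was not listed. The ubiquitin genes Ubb and Rps27a had 2.4 and 2.6 RPM. The core assembly factor Pomp was in no list. None of the 18 had a Cxxc1 window within 1 kb, against 2.04% of all autosomal genes.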

How the data were processed

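ChIP-seq libraries were sequenced and mapped to mm9 by the authors, base calls were made with CASAVA 1.8.2, uniquely mapped reads were kept, and enriched windows were called with SICER 1.1 (names and versions as in the submitters' processing notes). The methods name input and Cxxc1-deficient ChIP DNA as controls for the calls, without saying which served for H3K4me3. The aligner and the treatment of duplicates are not given in the sources used here. The authors deposited RPM values, rounded to 1 decimal, for each enriched 200-bp window, and each list comes from 1 library.

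Neighbouring windows counted as 1 peak where no more than 2 windows were missing between them. Genes of GENCODE vM1 were merged by symbol and chromosome, which joined 2 identifiers each for Psmb9 and Psmd14. A gene was listed when a window lay within 1 kb of an annotated TSS, and its RPM was summed over those windows. The reference TSS was the 5′-most one with a consensus coding transcript. Tags were recovered from the decimal steps. Shares carry exact binomial and tags exact Poisson 95% intervals. Sequence was read from the mm9 genome. The rule named the catalytic beta subunits, all genes in the deficient or Cxxc1 lists, the strongest and weakest 5 in WT and the unlisted ones, and the remaining WT-listed genes were added by role, so that all 49 are named. Values of some genes that work with the proteasome are not reported here. The members and lists were chosen with earlier results of these data known. Python 3.11.15, numpy 2.4.6, scipy 1.17.1 and matplotlib 3.10.9 were used, and scripts were tested on simulated data.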

Additional observations from a re-analysis of the deposited data

How the results depend on the processing

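The count of 24 genes with WT H3K4me3 was 5 with only the strongest WT peaks kept, in the number of the deficient list, which by construction removes the weaker peaks, and the count listed in both genotypes was then 2 in place of 5. The count with Cxxc1 went from 1 to 0 with the 5′-most start only, because the Psmf1 peak lies at an inner start. The same setting dropped Psma6 from both H3K4me3 lists, since its counted windows also lie at an inner start. Under the other 7 of 8 alternatives the WT count lay between 16 (peaks of at least 2.2 RPM) and 25 (2 kb), and the counts for the deficient list and for both lists stood at 4 or 5. The median WT level was 1.8 to 2.4 RPM and the median ratio 1.06 to 1.47. Psmc2 went from 0.4 to 1.9 RPM over the whole peak and was not listed within 500 bp, Psmb10 went from 1.6 to 0.6 RPM within 500 bp and to 3.3 RPM over the whole peak, and Psmb8 had 2.5 RPM in WT within 500 bp. Psme2 was higher in the deficient list within 1 kb (2.4 against 2.1 RPM) and higher in WT within 2 kb (3.5 against 3.3 RPM). No paired analysis was possible because every group holds 1 library. Depth limits every value: 1 window holds a few tags, and a promoter absent from a list cannot be called free of the mark.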
